A study of Mus musculus with 123 samples.

Results

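The RNA levels of 4 nuclear receptor genes were followed in mouse cerebral cortex across the day and after sleep deprivation: Nr1d1 and Nr1d2, which encode the repressors Rev-erb alpha and Rev-erb beta, and Rora and Rorb, which encode the activators ROR alpha and ROR beta. The 4 genes were chosen by name from 13842 genes in the RNA table, and all 4 had a value in each of 62 animals. Rev-erb and ROR proteins compete for the same DNA element, the ROR response element: ROR proteins raise and Rev-erb proteins lower the transcription of the genes that carry it, among them the core clock gene Arntl. The Rev-erb genes are in turn driven through E-boxes by the Arntl and Clock proteins, so the 2 arms form a loop of the circadian clock. Rev-erb proteins bind heme and recruit the NCoR and HDAC3 co-repressor complex, and Rorb is known in cortex as a gene of layer 4 neurons.

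Animals were male C57BL/6J mice of 11 to 12 weeks kept under 12 h of light and 12 h of dark, and RNA and ATAC libraries came from the same individuals. ATAC-seq (a transposase-based assay) measures how open the chromatin is. Time of day is given as zeitgeber time (ZT), with light onset at ZT0. The 26 controls slept freely and were sampled at ZT0 (n = 8, of which 4 were labelled T0 and 4 T24), ZT3 (n = 3), ZT6 (n = 5), ZT12 (n = 5) and ZT18 (n = 5). The other 36 mice were kept awake by gentle handling from light onset and fall into 12 groups of 3, named by the hours counted from light onset of the control day. T27 mice were sampled after 3 h and T30 mice after 6 h of deprivation. The other groups had 6 h of deprivation and then recovery: T36, T42, T48, T54, T60, T66, T72 and T78 were sampled 6, 12, 18, 24, 30, 36, 42 and 48 h after its end, and T192 and T198 162 and 168 h after it.

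RNA levels are the deposited log2 values, whose library medians lay between 4.44 and 4.49. Per the labels each RNA library had over 36 M mappable reads (median 55 M). Libraries carry 1 of 2 batch labels: T60, T66, T192 and T198 are of batch 2, the other deprived groups and the ZT3 controls of batch 1, and the other control groups hold both. The RNA value of ZT0 control T0N5 merges 2 libraries, 1 of each batch, and was fitted as batch 1. Markers fixed for cortical cell types were present in each library (summed level of 4 excitatory neuron genes 11.1 to 11.4 over all groups), while Cbln3, the 1 measured marker of cerebellum, stayed at or below 0.66. Summed levels of listed markers were 7.32 to 7.72 for striatum, 5.92 to 6.66 for thalamus and 1.80 to 7.58 for choroid plexus. Whether RNA of neighbouring tissue was present was not tested. A change in bulk tissue does not tell fewer cells of a type from less RNA per cell. Differences between groups were tested with limma across all genes with batch as a term, and a call means a Benjamini-Hochberg adjusted p below 0.05 over all 13842 genes. No source used here gives whether the deposited levels are scaled by transcript length, so levels are compared between animals and not between genes.

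The sequence just before the first base of each gene is shown for the 3 genes whose RNA changed. Each of these windows, and also that of Rora, lies inside an ATAC peak described further on. The windows shown are the 250 bases before the RefSeq start on GRCm38.p6, all on the minus strand and written 5′ to 3′. They lie at chr11:98775378-98775627 for Nr1d1, chr14:18239107-18239356 for Nr1d2 and chr19:19111197-19111446 for the first of 2 Rorb starts. Capitals mark a match to a searched motif.
Nr1d1: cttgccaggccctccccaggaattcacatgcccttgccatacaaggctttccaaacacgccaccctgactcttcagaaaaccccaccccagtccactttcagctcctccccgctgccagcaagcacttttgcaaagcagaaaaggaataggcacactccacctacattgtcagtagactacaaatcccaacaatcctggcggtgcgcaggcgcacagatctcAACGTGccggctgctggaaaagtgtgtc
Nr1d2: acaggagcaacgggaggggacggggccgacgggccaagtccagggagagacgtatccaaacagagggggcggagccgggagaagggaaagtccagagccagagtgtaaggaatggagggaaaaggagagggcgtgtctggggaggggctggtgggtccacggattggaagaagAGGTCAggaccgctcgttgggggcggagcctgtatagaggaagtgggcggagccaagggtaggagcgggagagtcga
Rorb: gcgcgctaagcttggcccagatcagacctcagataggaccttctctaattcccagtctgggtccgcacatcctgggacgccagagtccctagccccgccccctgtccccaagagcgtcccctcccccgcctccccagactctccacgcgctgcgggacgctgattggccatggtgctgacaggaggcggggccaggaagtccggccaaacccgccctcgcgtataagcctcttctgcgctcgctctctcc
In the Nr1d1 window the capitals are AACGTG, a variant of the E-box, 28 bases before the start. In the Nr1d2 window they are AGGTCA, the core letters of nuclear receptor elements, 77 bases before the start. The Rorb window above and the Rora window held no match, and the window of the second Rorb start held AACGTG and TTACTTAA. The motifs were searched on both strands in 32851 promoter windows of 250 bases: CACGTG (E-box) is in 6.02% of them, AACGTG or CACGTT in 3.85%, TTANGTAA or TTACNTAA (D-box) in 2.06%, AGGTCA or TGACCT in 14.0% and TGACGTCA (cAMP response element) in 1.55%. A match describes letters and is not evidence of binding.

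Both Rev-erb genes varied strongly with time of day in undisturbed controls, Rorb varied less, and Rora did not pass the test. Nr1d1 was highest at ZT6 and lowest at ZT0, a range of 0.95 log2 units or 1.94-fold (limma F-test, adjusted p = 8.40e-13). Nr1d2 was highest at ZT12 and lowest at ZT0, a range of 0.66 or 1.59-fold (adjusted p = 2.68e-12). Rorb ranged over 0.33, or 1.25-fold, from a low at ZT0 to a high at ZT18 (adjusted p = 0.00519), and Rora over 0.13 (adjusted p = 0.272). So 3 of 4 members passed, where 40.7% of all genes did. By p-value Nr1d1 ranked 19 and Nr1d2 24 among all genes.

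In Nr1d1 the 8 ZT0 controls had a lowest level of 5.71, a median of 6.00 and a highest of 6.18, and the ZT3 controls had 6.28, 6.37 and 6.51. The ZT6 controls reached 6.86, 6.92, 6.93, 6.97 and 7.06, and the ZT12 controls 6.77, 6.79, 6.83, 6.85 and 6.88. The ZT18 controls had fallen back to 6.01, 6.13, 6.22, 6.33 and 6.37. Group means were thus 5.99 ± 0.149 (SD, n = 8), 6.39 ± 0.112 (SD, n = 3), 6.95 ± 0.0747 (SD, n = 5), 6.82 ± 0.0470 (SD, n = 5) and 6.21 ± 0.146 (SD, n = 5) in order of time. No ZT6 or ZT12 control overlapped any control of ZT0, ZT3 or ZT18. Nr1d1 rose from ZT0 to ZT3 by 0.40 (adjusted p = 0.0185, 1 of 4 members where 4.83% of all genes passed) and again from ZT3 to ZT6 by 0.55 (adjusted p = 0.0124, 2 of 4 members where 0.181% of all genes passed). The summed choroid plexus markers were 3.34 to 7.58 in ZT3 controls, against 2.14 to 3.42 at ZT0 and 1.93 to 3.03 at ZT6. Their part in these steps was not tested. ZT6 and ZT12 did not differ beyond their spread (-0.12, 95% interval -0.31 to 0.07, adjusted p = 0.555). The fall from ZT12 to ZT18 was -0.61 (adjusted p = 2.12e-06, 2 of 4 members where 26.8% of all genes passed), and ZT18 and ZT0 were not called different (-0.22, adjusted p = 0.106).

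Nr1d2 had its highest control levels at ZT12. Its ZT0 controls had a lowest level of 5.58, a median of 5.80 and a highest of 5.99, and its ZT3 controls had 5.79, 5.87 and 5.91, inside that span. The ZT6 controls had 6.13, 6.16, 6.20, 6.29 and 6.29, the ZT12 controls 6.41, 6.45, 6.49, 6.54 and 6.55, and the ZT18 controls 6.11, 6.18, 6.21, 6.21 and 6.35. Each ZT12 control therefore lay above every control of any other time, and the ZT6 and ZT18 controls covered nearly the same levels. The difference from ZT0 to ZT3 was 0.04 (adjusted p = 0.821), that from ZT3 to ZT6 0.36 (adjusted p = 0.0221) and that from ZT6 to ZT12 0.27 (adjusted p = 0.00600, 1 of 4 members where 3.87% of all genes passed). From ZT12 to ZT18 Nr1d2 changed by -0.28 (adjusted p = 0.000922) and from ZT18 to ZT0 by -0.39 (adjusted p = 1.03e-05, 2 of 4 members where 6.89% of all genes passed). Between ZT6 and ZT18 Nr1d1 differed by -0.73 (adjusted p = 5.69e-08), 1 of 4 members where 29.7% of all genes passed. Nr1d2 had a value of -0.00 there with a 95% interval of -0.13 to 0.13.

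**Figure D1:**
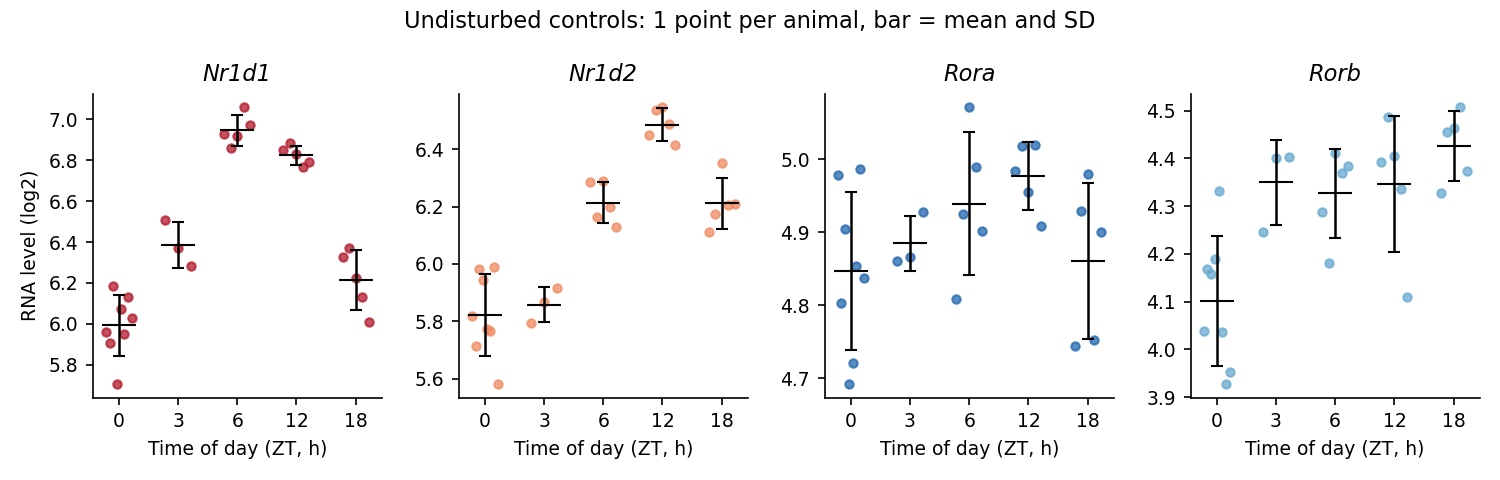
RNA level (log2) of the 4 genes in undisturbed controls against time of day (ZT, h), with 1 point per animal and the group mean and SD as bars; each panel has its own axis. Nr1d1 runs from 5.99 at ZT0 to 6.95 at ZT6, Nr1d2 from 5.82 at ZT0 to 6.49 at ZT12, Rorb is lowest at ZT0, and the groups of Rora overlap.

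The ROR genes varied over a smaller range. Rorb had a lowest level of 3.93, a median of 4.10 and a highest of 4.33 in the 8 ZT0 controls, and 4.33, 4.37, 4.46, 4.46 and 4.51 in the ZT18 controls. Only the highest ZT0 control reached the lowest ZT18 control. The step from ZT18 to ZT0 was -0.33 (adjusted p = 0.00602), and none of the other 4 steps of Rorb between neighbouring times was called (that from ZT0 to ZT3 was 0.25, adjusted p = 0.121). For time of day 3 of 6 other layer 4, 4 of 6 oligodendrocyte and 1 of 8 astrocyte markers were called, where 40.7% of all genes were. Summed levels at ZT0 and ZT18 were 7.62 to 7.84 and 7.79 to 7.99 for layer 4, and 11.06 to 11.49 and 10.90 to 11.20 for oligodendrocytes. The part of these markers in the Rorb range was not tested. Rora levels of all 26 controls lay between 4.69 and 5.07, with group means from 4.85 at ZT0 to 4.98 at ZT12, and none of its steps was called. Within batch 1 the ranges were 0.99 for Nr1d1, 0.73 for Nr1d2, 0.15 for Rora and 0.37 for Rorb. Within batch 2, which has no ZT3 controls, they were 0.94, 0.59, 0.14 and 0.29, and the call for Rorb did not hold there (adjusted p = 0.199).

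Thra, the thyroid hormone receptor gene on the opposite strand, overlaps the last 1075 bases of the Nr1d1 span (chromosome 11, 98767932 to 98775377 on GRCm38.p6). The library kit marks strand per the labels, but no source used here gives whether strand was used in counting. Thra had a time-of-day range of 0.02 (adjusted p = 0.985) and differences of 0.00 at T27, -0.05 at T30, -0.08 at T42 and -0.05 at T48, none of them called.

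The matching controls of each deprived group were those killed at the same ZT. T48, T72 and T192 share the ZT0 controls, T30, T54, T78 and T198 those of ZT6, T36 and T60 those of ZT12, and T42 and T66 those of ZT18, so results within such a set are not independent. Nr1d1 was lower than controls after 6 h of deprivation and higher 18 h after its end, Nr1d2 was lower 6 h and higher 18 h after it, Rorb was lower during deprivation, and Rora was called nowhere. By group, 1 of 4 members was called at T27 (15.6% of all genes were), 2 at T30 (31.6%), 1 at T36 (11.9%), 0 at T42 (1.05%; limma, with 1 of 4 at an unadjusted p under 0.05) and 2 at T48 (1.27%). From T54 on, none of 28 member tests was called by limma, with 6 at an unadjusted p under 0.05. There 0.00722% of all genes were called at T54, T60, T72 and T198, 0.0795% at T66 and 0% at T78 and T192. These p-values rest on a spread between animals within groups that was pooled over all groups, not on that of the compared groups alone.

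**Figure D2:**
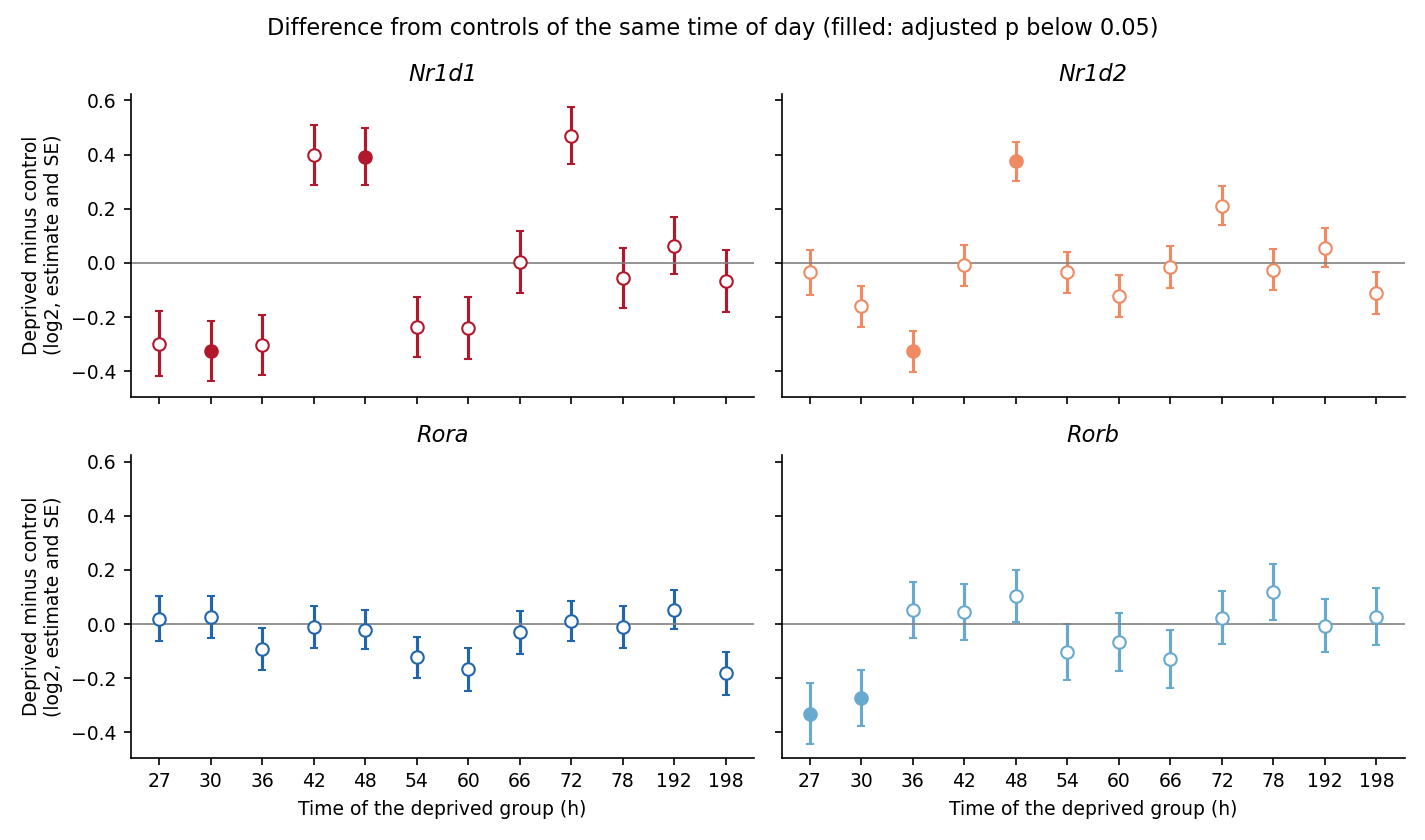
Difference of each deprived group from its matching controls (log2, estimate and SE from the limma fit) against the time of the group (h), 1 panel per gene; filled points have an adjusted p below 0.05. Nr1d1 goes from -0.33 at T30 to 0.39 at T48, Nr1d2 from -0.33 at T36 to 0.37 at T48, Rorb is lowest at T27, and Rora has no filled point.

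At T27, after 3 h of deprivation, Nr1d1 was 6.01, 6.09 and 6.16 in the deprived mice against 6.28, 6.37 and 6.51 in controls. The groups do not overlap, but the difference of -0.30 (SE 0.12) missed the threshold (adjusted p = 0.0876). At T30 the deprived mice had 6.58, 6.62 and 6.64, all below the lowest ZT6 control at 6.86. This difference of -0.33 (SE 0.11), 1.25-fold lower, was called (adjusted p = 0.0206). Within batch 1 it was -0.29 (adjusted p = 0.0755), and without deprived animal T30S1 -0.31 (adjusted p = 0.0676), and neither was called. Each T30 mouse lay above each T27 mouse, as each ZT6 control lay above each ZT3 control, and the effect at T30 minus that at T27 was -0.03 (95% interval -0.36 to 0.30).

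At T36 and T42 the deprived mice spread more widely in Nr1d1 (SD 0.360 and 0.235) than at T27 and T30 (0.0769 and 0.0326). The later recovery groups T54 and T60 had SDs of 0.0461 and 0.0543, and spread was not tested. At T36 they had 6.15, 6.53 and 6.87 against 6.77 to 6.88 in ZT12 controls, a difference of -0.30 (SE 0.11, adjusted p = 0.0643). Animal T36S1 lay far below the controls and T36S4 inside their range: without T36S1 the difference was -0.12, and without T36S4 -0.48 (adjusted p = 0.00402). At T42 they had 6.44, 6.50 and 6.87, all above the ZT18 controls, whose highest was 6.37. The difference was 0.40 (SE 0.11, adjusted p = 0.0597), and 0.30 within batch 1 (adjusted p = 0.289). Without control T18N3 it was 0.45 and passed (adjusted p = 0.0489), and over the animals left out in turn it ran from 0.26 to 0.48. The effect at T42 was higher than that at T36 by 0.70 (SE 0.15, adjusted p = 0.00456), the 1 of 4 members called for this change where 3.3% of all genes were.

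At T48 Nr1d1 was 6.21, 6.31 and 6.61 in deprived mice, all above the highest ZT0 control at 6.18. The difference of 0.39 (SE 0.10), 1.31-fold higher, was just called (adjusted p = 0.0449). Within batch 1 it was 0.46 (adjusted p = 0.0528), and the call was lost in 7 of 11 fits that left out 1 animal, T0N5 among them (0.39, adjusted p = 0.0787), with the lowest value, 0.27, without T48S4 (adjusted p = 0.336). At T54 the levels were 6.65, 6.73 and 6.73 and at T60 6.54, 6.59 and 6.65, below all their controls, with differences of -0.24 at both times (adjusted p = 0.413 and 0.501). At T72 they were 6.28, 6.52 and 6.57, above all ZT0 controls, and the difference of 0.47 (SE 0.10) had an unadjusted p = 4.57e-05 but an adjusted p = 0.105. At T66, T78, T192 and T198 Nr1d1 overlapped its controls, with differences between -0.07 and 0.06.

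Nr1d2 had 5.81, 5.83 and 5.83 at T27, inside the ZT3 controls (-0.04, 95% interval -0.20 to 0.13). At T30 it was 6.01, 6.07 and 6.08, below all ZT6 controls, whose lowest was 6.13, with a difference of -0.16 (SE 0.076, adjusted p = 0.102). At T36 the deprived mice had 5.97, 6.24 and 6.27, all below the lowest ZT12 control at 6.41. The difference was -0.33 (SE 0.076, 1.25-fold lower, adjusted p = 0.00237), and -0.35 within batch 1 (adjusted p = 0.00581). Without T36S1, its lowest animal, the difference was -0.23 (adjusted p = 0.0860). None of the T36 mice reached the ZT12 level of controls, and the higher 2 of them lay in the range of ZT6 controls. In the same comparison 1 of 6 layer 4, 1 of 6 inhibitory neuron and 1 of 8 astrocyte markers were called higher. Of 6 deep-layer neuron and 8 thalamus markers 1 each was called lower, where 11.9% of all genes were called. By limma 0 of 6 oligodendrocyte markers were called (3 at an unadjusted p under 0.05). Their summed levels were 10.84 to 10.96 at T36 against 10.94 to 11.28 at ZT12. The part of these markers was not tested.

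At T42 Nr1d2 did not differ from controls beyond the spread (6.11, 6.18 and 6.32 against 6.11 to 6.35; -0.01, 95% interval -0.16 to 0.14). At T48 it was 6.13, 6.19 and 6.27 against a highest ZT0 control of 5.99, and the groups do not overlap. The difference of 0.37 (SE 0.071), 1.30-fold higher, was called (adjusted p = 0.00288), was 0.42 within batch 1 (adjusted p = 0.00595), and kept its call in all 11 fits that left out 1 animal (0.33 to 0.41). It was not called in a fit of only the groups compared (0.42, adjusted p = 0.0831) or without the ZT0 controls labelled T0 (0.30, adjusted p = 0.0501). The effect at T48 was higher than that at T42 by 0.38 (SE 0.10, adjusted p = 0.0461), the 1 of 4 members called for this change where 1.01% of all genes were. At T72 Nr1d2 was 5.92, 6.06 and 6.11, partly within the ZT0 controls (0.21, adjusted p = 0.418). Its other differences from T54 on lay between -0.12 and 0.06, and of these only T60, with 6.36, 6.36 and 6.37, lay wholly below its controls (adjusted p = 0.637). Beside the T48 results, 2 of 8 astrocyte markers, 1 of 4 excitatory neuron markers and 1 of 6 layer 4 markers were called lower. Their summed levels in T48 mice and ZT0 controls were 10.92 to 10.98 against 10.96 to 11.12 for astrocytes, 11.13 to 11.20 against 11.20 to 11.33 for excitatory neurons and 7.49 to 7.60 against 7.62 to 7.84 for layer 4. By limma 0 of 6 oligodendrocyte and 0 of 8 thalamus markers were called (3 and 2 at an unadjusted p under 0.05), with summed levels of 11.46 to 11.65 against 11.06 to 11.49 for the former and 6.06 to 6.66, highest in T48S3, against 5.94 to 6.12 for the latter. The part of these markers in the Nr1d1 and Nr1d2 differences was not tested. Of all genes 1.27% were called at T48 in either direction.

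**Figure D3:**
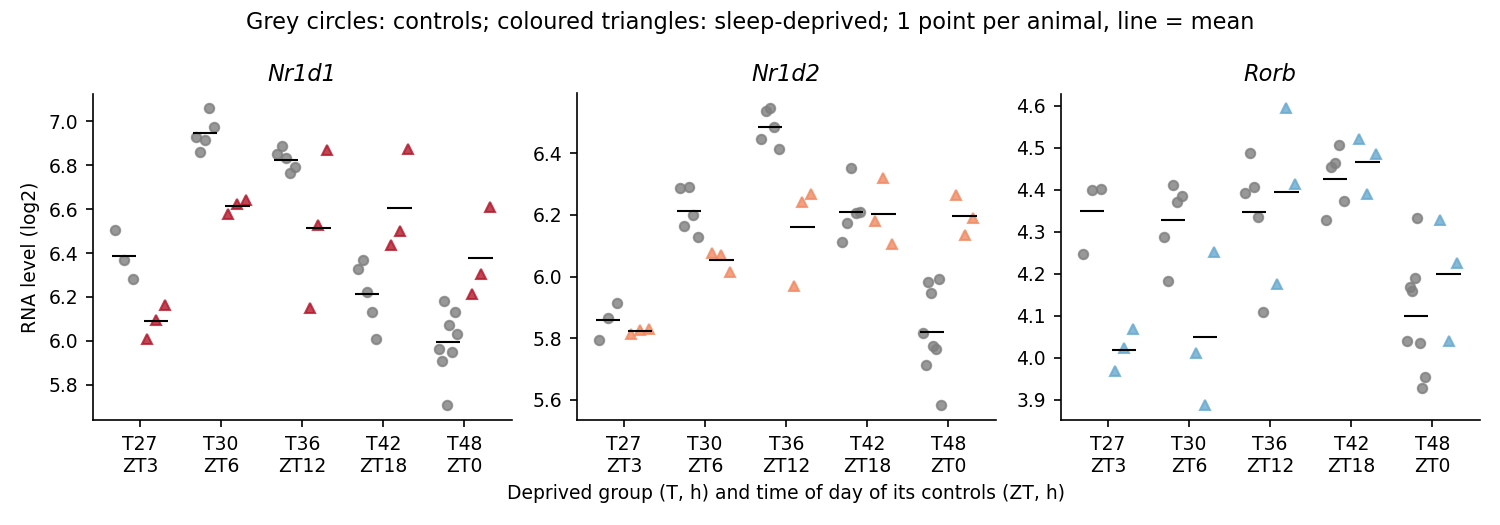
RNA level (log2) of Nr1d1, Nr1d2 and Rorb in the 5 deprived groups up to T48 (coloured triangles) beside their matching controls (grey circles), 1 point per animal and a line at the mean. Nr1d1 triangles lie below all circles at T27 and T30 and above all at T42 and T48, Nr1d2 triangles lie below at T30 and T36 and above at T48, and the lowest triangle at T36 is the same animal in each panel.

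Rorb was 3.97, 4.02 and 4.07 at T27 against 4.25, 4.40 and 4.40 in ZT3 controls, with no overlap. The difference was -0.33 log2 units (SE 0.11, 1.26-fold, adjusted p = 0.0370), but the call was lost in 5 of 6 fits with 1 animal left out (-0.38 to -0.30, highest adjusted p = 0.121). The 2 measured choroid plexus markers, Ttr and Kl, were both called lower in the same comparison, with a summed level of 2.38 to 2.86 in T27 mice and 3.34 to 7.58 in ZT3 controls, highest in T3N2. T3N2 had the lowest Rorb of the ZT3 controls, and without it the Rorb difference was -0.38 and was called (adjusted p = 0.0392). Every ZT3 control lay above every T27 mouse in these markers, so leaving out T3N2 does not remove the difference in them. The same ZT3 controls serve in the T27 differences and the steps from ZT0 to ZT3 and from ZT3 to ZT6 of all 4 genes. At T30 Rorb was 3.89, 4.01 and 4.25 against 4.18, 4.29, 4.37, 4.38 and 4.41, so 1 deprived mouse lay within the controls. The difference of -0.27 (SE 0.10, adjusted p = 0.0380) was -0.24 within batch 1 (adjusted p = 0.104) and -0.19 without T30S3 (adjusted p = 0.236). Of 6 other layer 4 markers 0 were called at T27 and T30 (limma, with 1 and 0 at an unadjusted p under 0.05), with medians of -0.07 and -0.06. At T30 3 of 5 microglia markers and 2 of 6 oligodendrocyte markers were called lower and 1 microglia marker higher. Of 4 endothelium markers 1 was called lower at T27 and 1 at T30, with summed levels of 6.87 to 6.95 at T27 against 7.04 to 7.19 at ZT3 and 6.91 to 6.94 at T30 against 7.04 to 7.18 at ZT6, without overlap. Of all genes 15.6% were called at T27 and 31.6% at T30 in either direction, so 2 of 6 oligodendrocyte markers at T30 is near the background. The part of these markers in the T27 and T30 results was not tested.

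In the recovery groups the Rorb levels overlapped those of controls. At T36 it was 4.18, 4.41 and 4.59 against 4.11 to 4.49 (0.05, 95% interval -0.15 to 0.26), and at T42 4.39, 4.49 and 4.52 against 4.33 to 4.51 (0.04, 95% interval -0.16 to 0.25). The change of the Rorb effect from T30 to T36, 0.33 (SE 0.14), was not called (adjusted p = 0.137). From T48 on the differences lay between -0.13 and 0.12, and each of these groups overlapped its controls.

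Rora, in contrast, had values of 4.62 to 5.10 over all deprived mice, against 4.69 to 5.07 in controls. Its differences were 0.02 at T27 (95% interval -0.15 to 0.19), 0.03 at T30 (-0.13 to 0.18), -0.09 at T36 (-0.25 to 0.06), -0.01 at T42 (-0.17 to 0.14) and -0.02 at T48 (-0.17 to 0.12). The farthest from 0 were -0.17 at T60, where the levels of 4.76, 4.80 and 4.84 lay below all ZT12 controls (adjusted p = 0.50), and -0.18 at T198 (adjusted p = 0.455). The lowest Rora value of any T36 mouse, 4.62, was again that of T36S1, which was the lowest of its group in all 4 genes.

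Whether the 2 genes of a pair moved apart was asked of the difference of their log2 levels within each animal. Rora minus Rorb averaged 0.919 in T30 mice and 0.612 in ZT6 controls, a difference of 0.31 without overlap (exact permutation test, two-sided, p = 0.0357, the smallest that 3 against 5 animals can give). At T27 the values were 0.885 and 0.535 (0.35, exact permutation p = 0.1, the smallest for 3 against 3). Nr1d1 minus Nr1d2 averaged 0.403 at T42 and 0.00185 in ZT18 controls, a difference of 0.40 (exact permutation p = 0.107). For this pair the difference was -0.11 at T60, without overlap (exact permutation p = 0.0357), and 0.25 at T72 (exact permutation p = 0.0485). It was -0.17 at T30 (exact permutation p = 0.0714) and -0.26 at T27, without overlap (exact permutation p = 0.1). Over all 24 such tests the lowest adjusted p was 0.286 (exact permutation), so no shift within a pair passed. The smallest p that these group sizes allow is 0.0121, for 3 against 8, so a shift in 1 comparison alone could not have passed over 24 tests.

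Animals that lay above their group mean in Nr1d2 tended to do so in Rora. Over 62 animals the deviations from group means had Pearson r = 0.48 (100000 permutations within groups, p = 0.00812, adjusted over 6 pairs 0.0487) and Spearman rho = 0.46 (p = 0.00308, adjusted 0.0185). Without the 2 animals farthest out in Nr1d2, r was 0.51. In batch 1 (n = 40) r was 0.40 and in batch 2 (n = 22) 0.64, neither past the threshold alone (adjusted permutation p = 0.216 and 0.0819), and without group T36 r was 0.40 (adjusted p = 0.17), so the call rests on the pooled set with T36. Nr1d1 and Nr1d2 themselves had r = 0.18 (adjusted p = 0.406). Nr1d2 and Rorb had r = 0.36 (adjusted p = 0.0758), with 0.62 in batch 1 and -0.13 in batch 2. Rora and Rorb had r = 0.23 (adjusted p = 0.302), with 0.53 and -0.36, so these 2 pairs differ in sign between batches.

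Likeness was described over the 17 group means, which share library preparation and were not adjusted for batch. Gene models without a standard name were left out. The genes whose pattern was most like Nr1d2 were Ciart (Pearson r = 0.95), Dbp (0.94) and Bhlhe41 (0.94), and those most opposite were Arntl (-0.94), Leo1 (-0.90) and Nfil3 (-0.88). For Nr1d1 they were Gpr146 (0.88), Rsad1 (0.86) and Ppp2r2d (0.85), opposite Ormdl2 (-0.84), Amot (-0.84) and Ccdc137 (-0.83). Nr1d1 and Nr1d2 had r = 0.63 with each other. Rorb was most like Tshz1 (0.90), Cyp39a1 (0.87) and Gid8 (0.85) and most opposite Dusp1 (-0.88), Fam43b (-0.87) and Map2k3 (-0.86). For Rora the values were lower: Skint8 (0.83), Zzz3 (0.78) and Xpo4 (0.77), opposite Uchl5 (-0.77) and Pgm2 (-0.76). These are descriptions of 17 means.

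Genes that drive the receptors or carry their elements were described from lists. Among 15 clock genes that act on or beside E-box and D-box elements, all 15 varied with time of day, where 40.7% of all genes did. Their median range was 0.71 (all genes 0.17), led by Ciart (1.95), Dbp (1.63), Per2 (1.48) and Nfil3 (1.18). At T27, where 15.6% of all genes were called, 5 were higher and 1 lower: Per2 (1.35), Bhlhe40 (0.90), Per1 (0.89) and Nfil3 (0.59) among the former and Dbp (-0.40) the latter. At T30 7 were higher and 6 lower, with Per1 at 1.03, Per2 at 0.97, Nfil3 at 0.93 and Dbp at -0.96. At T36, where Nr1d2 was lower, 2 were higher and 6 lower (median -0.31, all genes 0.00), with Ciart at -0.84, Dbp at -0.63, Bhlhe41 at -0.61 and Nfil3 at 0.82. At T42 0 of 15 were called by limma, with 4 at an unadjusted p under 0.05, and at T48 3 were higher and 1 lower. Of all genes 31.6% were called at T30, 11.9% at T36, 1.05% at T42 and 1.27% at T48, in either direction.

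Of 10 measured genes listed as carriers of ROR response elements, 5 of which are also in the clock list, all 10 varied with time of day (40.7% of all genes did). Nfil3 (1.18), Arntl (0.80), Cry1 (0.71) and Fabp7 (0.70), a fatty acid binding protein gene, had the widest ranges. Arntl and Nfil3 were highest at ZT0 and lowest at ZT12, where Nr1d2 had its low and high. Called higher were 2 at T27, 4 at T30 (median 0.20, all genes -0.00) and 2 at T36, and none was lower, where 15.6%, 31.6% and 11.9% of all genes were called in either direction. They were Nfil3 and Cry1 (0.47) at T27, Nfil3, Npas2 (0.41), Clock (0.27) and Arntl (0.23) at T30, and Nfil3 and Arntl (0.41) at T36. At T42 0 were called (2 at an unadjusted p under 0.05), and at T48 1 was called lower, where 1.05% and 1.27% of all genes were called.

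Among 12 co-repressors and co-activators, 1 rose and 1 fell at T27 (15.6% of all genes were called), 2 rose and 2 fell at T30 (31.6%) and 0 were called at T36 (1 at an unadjusted p under 0.05), T42 (5) or T48 (2). Hdac3, the deacetylase of the complex, was lower at T30 (-0.12). Tbl1xr1, a further subunit, was at -0.43 at T27 and -0.18 at T30, and 5 of the 12 varied with time of day (40.7% of all genes did), so these shares are near those of all genes. Of 10 genes for Rev-erb turnover and heme, 1 rose and 2 fell at both T27 and T30, where 15.6% and 31.6% of all genes were called, so the count at T30 is no higher than the background. Hmox1, which degrades heme, was at 0.40 at T27, Siah2, a ubiquitin ligase gene, at 0.36 at T30, Fbxw7, another, at -0.18 at T27 and 0.24 at T36, and Fech, the last enzyme of heme synthesis, at -0.15 and -0.18 at T27 and T30. At T42 and T48 0 of the 10 were called or had an unadjusted p under 0.05. Of 30 other measured nuclear receptor genes 7 rose and 1 fell at T27 (15.6% of all genes were called) and 9 rose and 4 fell at T30 (31.6%), led by the activity-induced Nr4a1 (1.97 at T30), Nr4a3 (1.34), Nr4a2 (1.12) and the retinoic acid receptor gene Rara (0.67). At T36 and T42 0 of 30 were called, with 6 and 3 at an unadjusted p under 0.05, and at T48 1 was. Of all genes 11.9% were called at T36, 1.05% at T42 and 1.27% at T48.

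Open chromatin at the 4 genes had few calls, 2 peaks for time of day and 1 for deprivation. ATAC values, which the authors scaled to about 1 M per library, cover 130727 peaks in 59 animals, with 2.21 M to 11.9 M reads in peaks per library (median 4.09 M), and T66 has 1 library. Peaks within 5 kb of the gene spans numbered 6 for Nr1d1, 6 for Nr1d2 (chromosome 14, 18204056 to 18239106), 65 for Rora (chromosome 9, 68653404 to 69388246, on the plus strand and overlapping 5 long non-coding RNA genes) and 15 for Rorb (chromosome 19, 18930609 to 19111196). Levels are log2 of the value plus 0.5. For time of day 2 of 6 Nr1d1 peaks, 0 of 6 Nr1d2 peaks, 0 of 65 Rora peaks and 0 of 15 Rorb peaks were called by limma (3, 2, 9 and 3 at an unadjusted p under 0.05), where 1.39% of all peaks were. edgeR on the reads called 1, 0, 1 and 0.

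Of the called Nr1d1 peaks, that at chr11:98767303-98767651 lies past the 3′ end of Nr1d1 and within the Thra span. Its levels were 2.46, 2.86, 2.89, 3.15 and 3.43 at ZT6 and 1.00, 1.88 and 2.48 at ZT3, so the highest ZT3 control reached the lowest ZT6 control. The range was 1.16, or 2.24-fold (adjusted p = 0.0163), and 0.77 without the low control T3N3 (adjusted p = 0.0649). The peak at chr11:98773670-98774384, 993 bases inside the gene from its start, ranged over 0.47 from ZT0 (lowest 4.20, highest 4.88) to ZT6 (4.80 to 5.21; adjusted p = 0.0372), and lost its call in 12 of 25 fits with 1 animal left out and in edgeR (adjusted p = 0.0764). The peak over the Nr1d1 start, chr11:98775022-98775769, which holds the printed window, was also highest at ZT6 (range 0.54, adjusted p = 0.112). The peak over the Nr1d2 start, chr14:18238063-18239755, had more signal than 99.9% of all peaks and ranged over 0.30 (adjusted p = 0.0811). The start peaks of Rora (chr9:68653091-68654109) and Rorb (chr19:19110900-19111840) ranged over 0.42 and 0.41 (adjusted p = 0.366 and 0.346).

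**Figure D4:**
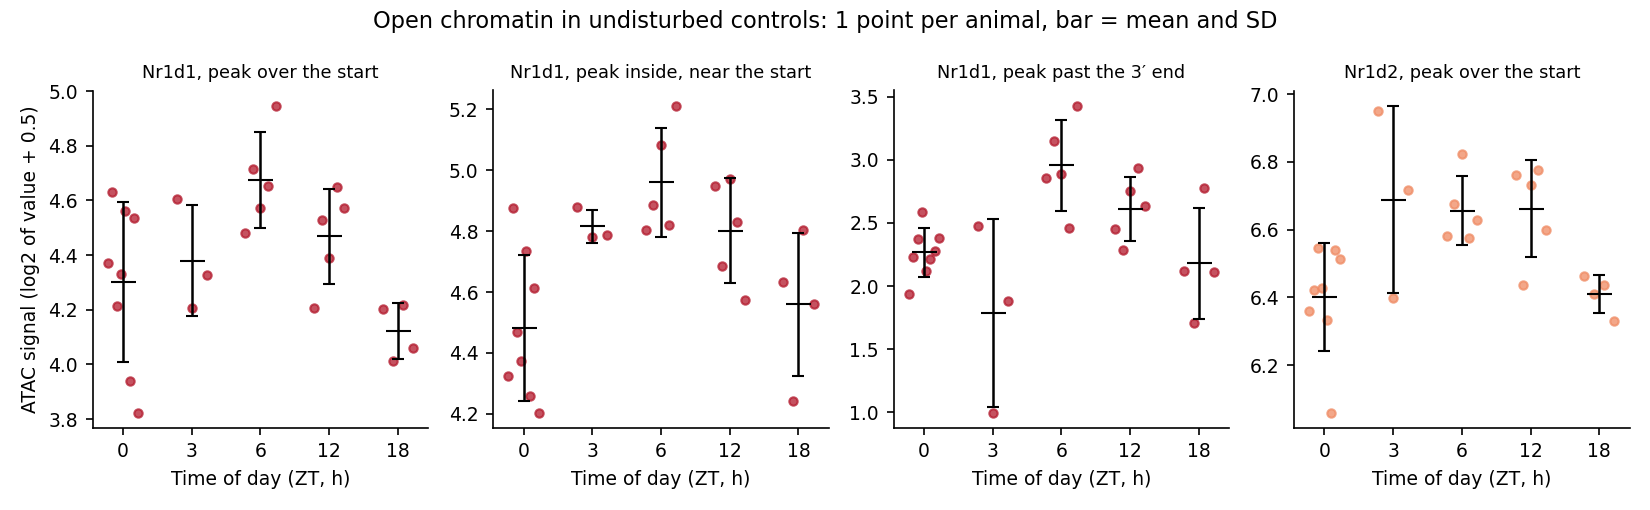
ATAC signal (log2 of value + 0.5) of 3 named peaks at Nr1d1 and 1 at Nr1d2 in undisturbed controls against time of day (ZT, h), 1 point per animal with mean and SD bars. The Nr1d1 peaks are highest at ZT6, and the peak past the 3′ end of Nr1d1 spreads from 1.00 to 2.48 among the 3 ZT3 controls.

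A single member peak was called for deprivation. Of the 92 peaks 0 were called at T27 (0.689% of all peaks were), 0 at T30 (2.6%), 1 at T36 (0.618%), 0 at T42 (0%) and 0 at T48 (0.00153%), with 7, 15, 9, 7 and 7 at an unadjusted p under 0.05 (limma), and edgeR called 0 at each. At T30, where Nr1d1 RNA was lower, its 6 peaks had a median of -0.35 (all peaks -0.02). The peak past its 3′ end was at 1.99, 2.28 and 2.41 in T30 mice, all below the ZT6 controls (-0.72, SE 0.26, adjusted p = 0.120), and the start peak at -0.35 (SE 0.16, adjusted p = 0.276). Against the same ZT6 controls the median of the Nr1d1 peaks was -0.16 at T54, -0.05 at T78 and -0.33 at T198. The peak past the 3′ end was at -0.54, -0.52 and -0.33 in these groups. Nr1d1 RNA differed there by -0.24, -0.06 and -0.07, none called. A link between these peaks and the RNA was not tested. The called peak lies inside Rora, 457851 bases from its start, at chr9:69111637-69112424. It was 2.42, 2.53 and 2.64 in T36 mice against 1.50, 1.58, 1.67, 1.70 and 2.17 in ZT12 controls, without overlap, a difference of 0.84 (SE 0.23, adjusted p = 0.0486). Controls of ZT0, ZT3, ZT6 and ZT18 lay between 2.06 and 2.65 at this peak, so the ZT12 controls were the low group. The call was lost in 7 of 8 fits that left out 1 animal and in edgeR (0.92, adjusted p = 0.126). No member peak was called from T54 on, with 1 to 11 of 92 at an unadjusted p under 0.05, and edgeR called 0 of all peaks there.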

How the data were processed

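RNA-seq and ATAC-seq were made from the cortex of the same animals. The authors deposited RNA levels as log2 values per gene and ATAC values per peak as signal, scaled to about 1 M per library. Per the submitters' processing notes, HTSeq 0.6.1, MACS2 2.1.1, Bowtie2, kallisto 0.43.0, bedtools 2.26.0, sleuth 0.29.0 and SAMtools were used on GRCm38 (mm10), with no roles given. Of the deposited log2 values, 48 of batch 1 and 0 of batch 2 equal -1 (tolerance 1e-06) while 23 of batch 2 lie below it, so the 2 batches were not on the same floor. ATAC signal steps gave whole reads for 100% of values (tolerance 0.02), and 1 repeat library was left out.

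RNA levels were fitted as deposited and ATAC as log2(signal + 0.5) with limma 3.58.1 (R 4.3.3) on group plus batch over all groups with an intensity trend, leaving 44 and 41 residual degrees of freedom. Tests were two-sided, with Benjamini-Hochberg adjustment over all genes or peaks and a threshold of 0.05. Permutation tests used scipy 1.17.1. edgeR 4.0.16 on recovered reads, other batches, the animal number as a block, other filters, pseudocounts and windows, and leaving out each animal were alternatives. Statistics were checked on simulated data.

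The members and lists were chosen with earlier results of these data known. Named were the 4 members, Thra, up to 4 called genes per list and comparison with the largest change, the 3 genes most and least like each member, and peaks at starts or with a call (up to 3 per member and comparison). Gene models without a standard name were left out when the genes most and least like a member were picked. Some genes that this rule names are not reported here. Promoter sequences are from RefSeq (GRCm38.p6), where all 4 members matched.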

Additional observations from a re-analysis of the deposited data

Results flagged for a closer look

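The effect of deprivation on Nr1d1 differed between times: it was -0.30 at T36 and 0.40 at T42, and the difference of the effects, 0.70 (SE 0.15), passed limma's test of that difference (adjusted p = 0.00456). For Nr1d2 the effect was -0.01 at T42 and 0.37 at T48, a difference of 0.38 (SE 0.10, adjusted p = 0.0461). No animal stood apart from its group by Dixon's criterion in the 16 combinations of gene and control group that hold 4 to 10 animals, where chance would mark about 1 in 20.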

How the results depend on the processing

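With 3 animals per deprived group, changes of 0.2 to 0.4 log2 units lie near the threshold, and the calls for Nr1d1 at T30 and T48, Nr1d2 at T36 and T48 and Rorb at T27 and T30 depend on single animals or settings. RNA depth per gene cannot be read from the deposited values, and ATAC depth limits the weaker peaks. The daily ranges of Nr1d1 and Nr1d2 kept their calls under every alternative run. The causes of the changes below were not tested. Values are log2 differences unless named otherwise.

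With only the groups compared, Nr1d1 at T27 (-0.30) and Nr1d2 at T30 (-0.19) passed. Rorb at T30 (-0.24), Nr1d1 at T48 (0.46) and Nr1d2 at T48 (0.42) did not, and signs turned for Rorb at T36 (-0.033), T60 (0.063) and T198 (-0.015) and Nr1d1 at T192 (-0.0096). With batch 1 alone, Nr1d1 at T30 (-0.29) and T48 (0.46) and Rorb at T30 (-0.24) did not pass, and Rorb at T36 turned to -0.033. With batch 2 alone the daily range of Rorb (0.29) did not pass, and Rorb at T60 (0.063) and T198 (-0.015) and Nr1d1 at T192 (-0.0096) turned. Without the batch term Nr1d1 at T36 (-0.31) and T42 (0.39) passed, Rorb at T192 turned to 0.00051, and 1 Rorb peak was called for time of day. Without the ZT0 controls labelled T0, Nr1d2 at T30 (-0.18) passed, Nr1d1 (0.41) and Nr1d2 (0.30) at T48 and the daily range of Rorb (0.30) did not, and Nr1d2 at T66 (0.0067) and Rorb at T72 (-0.014) turned. Without those labelled T24, Nr1d1 at T36 (-0.32) passed, Nr1d1 at T48 (0.34) did not, and Rorb at T192 turned to 0.017. Without the intensity trend, and without animal T0N5, Nr1d1 at T48 was 0.39 and did not pass, and without T0N5 Rora at T48 turned to 0.0048.

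Replicate numbers did not pair animals: residuals of same-numbered animals had a median r of -0.0014 (330 pairs), against 0.0005 for other pairs (1464). With the animal number as a replicate block, Nr1d2 at T30 (-0.19) passed, and Rorb at T27 (-0.28), Nr1d1 at T48 (0.39) and the daily range of Rorb (0.27) did not. Signs turned for Nr1d2 at T42 (0.051) and T66 (0.041), Rora at T48 (0.0035), Nr1d1 at T66 (-0.0082) and Rorb at T72 (-0.020). In the same fit 0 Rora peaks were called at T36, and 1 Nr1d1 and 1 Rora peak for time of day.

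For Nr1d1 peaks, 50 kb on each side gave 1 call at T30 and 3 for time of day, and the gene span alone and edgeR gave 1 for time of day. For Rora peaks, a pseudocount of 2 and edgeR both gave 0 calls at T36 and 1 for time of day. Without 1 animal, calls for time of day ran from 0 to 2 for Nr1d1 and Rora peaks and 0 to 1 for Nr1d2 peaks, and at T36 from 0 to 1 for Rora peaks.

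The association of Nr1d2 and Rora was r = 0.40 in batch 1, 0.64 in batch 2 and 0.40 without T36, none past the threshold. That of Nr1d2 and Rorb was 0.62 in batch 1, where it passed, and -0.13 in batch 2. That of Rora and Rorb was 0.53 in batch 1, where it passed, and -0.36 in batch 2, and that of Nr1d1 and Rorb was -0.056 without T36. These 3 settings were chosen after seeing the data.

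With 1 animal left out, Nr1d1 ran from -0.35 to -0.30 at T30, -0.48 to -0.12 at T36, 0.26 to 0.48 at T42, 0.27 to 0.47 at T48, -0.13 to 0.097 at T66, -0.094 to 0.014 at T78 and -0.0026 to 0.12 at T192. Nr1d2 ran from -0.38 to -0.23 at T36, -0.068 to 0.038 at T42, -0.14 to 0.022 at T54 and -0.072 to 0.088 at T66. Rora ran from -0.020 to 0.057 at T27, -0.031 to 0.064 at T30, -0.20 to 0.043 at T36, -0.047 to 0.023 at T42, -0.054 to 0.0048 at T48, -0.12 to 0.018 at T66, -0.038 to 0.053 at T72 and -0.050 to 0.028 at T78. Rorb ran from -0.38 to -0.30 at T27, -0.37 to -0.19 at T30, -0.046 to 0.16 at T36, -0.15 to 0.0033 at T60, -0.083 to 0.17 at T72, -0.042 to 0.041 at T192 and -0.092 to 0.090 at T198.

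Of all genes, 4372 were called at T30 and 2757 with only the groups compared, and 1650 and 868 at T36. At T42 145 were called, 238 without the batch term, 84 with the replicate block, 40 in batch 1 and 0 with only the groups compared. At T48 176 were called, and 25 to 318 under the alternatives. For time of day 5630 were called, 3244 in batch 1 and 1377 in batch 2.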
